A study of Rattus norvegicus with 102 samples.

Results

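The genes described here are 9 components, receptors and regulators of complement: C1qa, C1qb, C1qc, C1s, C3, C4b, C3ar1, C5ar1 and Serping1. They were chosen by name, as the rows whose gene symbol equalled one of these 9, and all 9 were found once in each of 3 deposited expression tables of the rat hippocampus, which listed 26284 (Illumina and WT tables) and 26341 (Ion Proton table) genes. The rule used no measured value, but the genes were picked with earlier results of these data known.

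Complement is a set of proteins that tag surfaces for removal by phagocytes and, in blood, can kill microbes. In the classical pathway C1q binds a target, its partner protease C1s cleaves C4 and C2, and the resulting enzyme cleaves C3. The fragments C3a and C5a signal through the receptors C3ar1 and C5ar1, while Serping1, the C1 inhibitor, stops C1s and its partner C1r. In the brain, C1q is made mainly by microglia, C4 largely by astrocytes and oligodendrocyte lineage cells, and C1q and C3 are known for marking synapses for removal by microglia.

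RNA had been sequenced from the subfields CA1, CA3 and dentate gyrus (DG) of male Fischer 344 rats, 1 library per subfield and rat. Of the 34 rats, 10 were young (Y in the titles, aged 5 to 6 months) and 24 were aged (17 to 22 months). The latter had been classed in a water maze, by how strongly they searched for a removed platform where it had been, as aged unimpaired (OG, n = 12) or aged impaired (OB, n = 12). The labels name no transgene and no drug, the tissue came from 1 hippocampus per rat, and CA2 and the subiculum were not isolated. Each tissue sample had a column in the Illumina poly-A table, the Ion Proton poly-A table and a table that the submitters named WT.

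Values are normalised reads of the Illumina table unless another is named, that is, read counts divided by a size factor for each library, and levels are not compared between genes. A difference is on the log2(value + 1) scale, with its standard error (SE), from limma fitted to all genes with a mean of at least 10, and an adjusted p is over all of those genes. For age and cognition, "retested" means p under 0.01 in the Illumina table and a one-sided p under 0.05 for the same sign in the Ion Proton data, which holds the same rats and so bears on technical error only. For subfields, a call needed an adjusted p under 0.05, and the same sign, in each of the poly-A tables.

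Illumina libraries held 3.25 to 42.8 M reads (M, mega; median 10.7 M), and Ion Proton libraries 4.47 to 21.4 M. A total of 12 libraries from 10 rats, 8 of them labelled CA3, lay nearer to another subfield by marker genes in both poly-A tables. The rat numbers formed 2 series, below 9000 (18 rats, of which 5 young) and from 9000 up (16 rats, of which 5 young), and 9 of those 10 rats were in the upper series. The study worked at 2 sites. The numbers of young and aged rats in the series equal those its methods give for the sites, but no label tied a rat to a site. Among the Ion Proton libraries 5 stood apart (correlation of 0.821 to 0.899 with the median of their subfield), namely the CA1 libraries of aged unimpaired rats R2230 and R2232 and of aged impaired rat R9874, and the CA3 libraries of aged impaired rats R1931 and R9781. The defining microglial markers Cx3cr1, P2ry12, Tmem119 and Csf1r had reads in every Illumina library, while Siglech was at or under 3 reads in all of them.

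The 3 C1q chain genes lie next to each other on chromosome 5, in the order C1qb, C1qc, C1qa. The sequences of the 250 bases before the start of C1qa, C1qb, C3 and C4b are shown because these genes were among those called with age. They were taken from RefSeq (build GRCr8, not the rn5 build of the deposited counts), which matched 5 of the 9 genes. They are written 5′ to 3′ on the strand of the gene. Capitals mark matches, on either strand, to 1 of 4 short motifs: GAGGAA (the core bound by PU.1, a factor of microglia and macrophages), TTNNGNAA (C/EBP type), TTCNNNGAA (STAT type) and an IRF type motif, which had no match here.
C1qa, chr5:154419934-154420183, minus strand: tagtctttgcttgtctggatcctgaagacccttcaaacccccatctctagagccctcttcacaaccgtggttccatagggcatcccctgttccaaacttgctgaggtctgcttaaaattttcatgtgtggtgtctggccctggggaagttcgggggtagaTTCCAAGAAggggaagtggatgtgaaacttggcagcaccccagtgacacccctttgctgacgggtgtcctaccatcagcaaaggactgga
C1qb, chr5:154407828-154408077, minus strand: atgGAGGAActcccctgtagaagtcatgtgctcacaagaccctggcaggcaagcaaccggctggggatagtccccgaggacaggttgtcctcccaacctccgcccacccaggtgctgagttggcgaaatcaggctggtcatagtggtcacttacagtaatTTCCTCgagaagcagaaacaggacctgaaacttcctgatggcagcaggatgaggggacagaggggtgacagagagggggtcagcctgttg
C3, chr9:2201340-2201589, minus strand: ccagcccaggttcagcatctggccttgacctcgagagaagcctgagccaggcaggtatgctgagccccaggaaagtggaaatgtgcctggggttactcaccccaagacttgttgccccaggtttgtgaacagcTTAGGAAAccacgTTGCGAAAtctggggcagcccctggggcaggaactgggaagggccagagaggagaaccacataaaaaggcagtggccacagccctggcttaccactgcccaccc
C4b, chr20:4201729-4201978, plus strand: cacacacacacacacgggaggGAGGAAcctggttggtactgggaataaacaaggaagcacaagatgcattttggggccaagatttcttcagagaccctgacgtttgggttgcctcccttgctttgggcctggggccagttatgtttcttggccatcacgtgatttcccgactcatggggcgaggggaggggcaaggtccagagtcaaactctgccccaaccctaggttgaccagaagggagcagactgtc
C1qa held 1 STAT type match, 90 bases before the start. C1qb held GAGGAA at 247 bases before the start and TTCCTC, the same motif on the other strand, at 90. C3 held C/EBP type matches at 117 and 104 bases before the start, and C4b held GAGGAA at 229. Over all 33469 RefSeq promoter windows of this length, 23.3% held GAGGAA, 37.2% TTNNGNAA, 7.7% TTCNNNGAA and 3.4% the IRF type motif on either strand, and no 2 of the marked motifs overlapped. These are matches of letters, and binding was not measured.

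The first comparison asked which of the genes differed between young and aged rats within a subfield. C3 and C4b were higher in aged rats in all 3 subfields, by 1.73 to 1.79-fold for C3 and 1.82 to 2.03-fold for C4b on the log2(value + 1) scale. The 3 C1q chains were higher by smaller amounts, 1.21 to 1.26-fold in DG, and the protease, the receptors and the inhibitor were neither retested nor called by adjusted p in any subfield. In CA1, 3 of 9 genes were retested (C1qc, C3, C4b), beside 0.832% of all genes tested. In CA3, 2 of 9 were retested (C3, C4b), beside 0.393%, and in DG 5 of 9 (C1qa, C1qb, C1qc, C3, C4b), beside 1.07%. All were higher in aged rats. By adjusted p in the Illumina table alone the calls were C3 and C4b in CA1 (0.338% of all genes), none in CA3 (0 of all genes) and C1qa, C1qb and C4b in DG (0.300%). The median difference over the 9 genes was 0.28 (CA1), 0.26 (CA3) and 0.28 (DG), against -0.0045, -0.0136 and -0.0015 over all genes tested. In CA3, where limma gave no adjusted call, 3 of the 9 had an unadjusted p under 0.05, beside 3.31% of all genes. There edgeR gave no adjusted call among the 9 (0.0632% of all genes) and DESeq2 gave 1 (C3, 0.119%). In pieces of tissue, more cells of a type and more RNA per cell cannot be told apart.

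C1qa, C1qb and C1qc encode the chains of C1q, the recognition protein of the classical pathway. In DG the young libraries had 636 to 955 C1qa reads (median 767) and the aged libraries 781 to 1423 (median 966). All 24 aged libraries lay above the young median and 13 above every young library. The difference was 0.33 (SE 0.073, adjusted p = 0.0257).

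For C1qb in DG the young libraries had 374 to 539 reads (median 482) and the aged 468 to 807 (median 566), a difference of 0.28 (SE 0.065, adjusted p = 0.0403), and 15 of 24 aged libraries lay above every young one. For C1qc in DG the young libraries had 277 to 434 reads (median 369) and the aged 332 to 609 (median 442), a difference of 0.28 (SE 0.070, adjusted p = 0.0724). The groups overlapped for each chain, and for C1qb and for C1qc 22 of 24 aged libraries exceeded the young median. Without any 1 of 6 rats (R1922, R1923, R2176, R2221, R9877 and R9879) the adjusted call of C1qa was lost, and that of C1qb was lost without any 1 of 19 rats (R1922, R1923, R2176, R2182, R2221, R2231, R2232, R2235, R9782, R9860, R9865, R9867, R9869, R9870, R9872, R9874, R9876, R9877 and R9879). C1qc gained it without R2184, R2233 or R9780. Their differences then stayed at 0.30 to 0.37 for C1qa and 0.25 to 0.30 for C1qb over all rats left out, and all 3 chains remained retested without any rat.

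In CA1 the C1qa reads were 736 to 1293 in young rats (median 888) and 772 to 1566 in aged rats (median 1146), a difference of 0.34 (SE 0.084, p = 0.000237, adjusted p = 0.0612). The highest young library, that of rat R9780, exceeded 20 of the 24 aged libraries, and the next young library lay at 948. C1qb differed by 0.23 (SE 0.071) and C1qc by 0.28 (SE 0.081), and 22 of 24 aged libraries lay above the young median for each chain. In the Ion Proton table the CA1 difference of C1qa was 0.15 (SE 0.20, p = 0.473). There the lowest aged value, 163, came from 1 of the 5 libraries that stood apart. With these 5 left out of the Ion Proton fit, all 3 chains were retested in CA1 besides C3 and C4b, so that 5 of 9 genes were called, beside 1.18% of all genes. C1qc alone lost its call in CA1 without any 1 of 8 rats (R1922, R1923, R2221, R9865, R9869, R9870, R9872 and R9879), its difference then ranging from 0.25 to 0.33 over all rats left out. C1qa was retested without R2232. By adjusted p, C1qa was called without any 1 of R2232, R2233, R2237, R9780 and R9870, and C1qc without R2232 or R9780.

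In CA3 the chains differed by 0.30 (C1qa, SE 0.13), 0.25 (C1qb, SE 0.13) and 0.20 (C1qc, SE 0.13), and C1qa, C1qb and C1qc were not retested. The aged group had 1 library far above the rest, that of aged impaired rat R2238, with 3653 C1qa reads, 3.28 times the median of the other aged impaired CA3 libraries. Without it the CA3 differences were 0.23 (C1qa), 0.19 (C1qb) and 0.13 (C1qc).

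C1s, the protease that C1q activates, showed no call with age. Its medians in young and aged libraries were 111 and 130 (CA1), 121 and 140 (CA3), and 114 and 128 (DG). The groups overlapped in each subfield. C1s differed by 0.19 (SE 0.14), 0.06 (SE 0.12) and 0.11 (SE 0.077), with intervals from -0.18 to 0.47 over the 3 subfields. In CA3 the C1s difference was 0.18 without young rat R9876 (285 reads there) and 0.02 without R9879, and in CA1 it was -0.32 in the Ion Proton table, none of them called.

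C4b encodes C4, the substrate of C1s. In DG the young libraries had 9.16 to 35.0 C4b reads (median 27.7) and the aged 27.1 to 84.9 (median 49.3). Of the 24 aged libraries, 20 lay above every young library. The difference was 1.02 (SE 0.18, adjusted p = 0.00215). The lowest young value rested on 4 whole reads.

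In CA1 the C4b reads were 24.2 to 50.7 in young rats (median 33.2) and 38.6 to 140 in aged rats (median 62.1). Here 17 of 24 aged libraries lay above every young one, and the difference was 0.87 (SE 0.15, adjusted p = 0.0032). In CA3 the young libraries had 18.3 to 215 reads (median 25.7) and the aged 28.0 to 379 (median 59.4), with a difference of 0.88 (SE 0.31, p = 0.00855, adjusted p = 0.999). All 24 aged CA3 libraries lay above the young median, but 1 young library, that of rat R9876, had 215 reads, above 23 of the 24 aged ones. Without that library and that of R2238 the CA3 difference was 1.06 with an adjusted p of 0.0259, that of C3 was 0.68 (adjusted p = 0.0412), and 0.105% of all genes passed the adjusted test.

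The CA3 call of C4b lay close to its limit. It was lost without the 7 rats sequenced most deeply, without the libraries nearer to another subfield, with edgeR and with DESeq2. It was also lost without any 1 of 20 rats (R1922, R1923, R2175, R2176, R2182, R2184, R2185, R2189, R2221, R2237, R9780, R9862, R9865, R9867, R9869, R9870, R9874, R9875, R9877 and R9881), with differences from 0.76 to 1.18 over all rats left out. C4b and C4a are near-identical copies, so counting could split their reads, and neither is certain on its own. A further C4a row, with another identifier, held at most 1.44 normalised reads in any library.

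C3 is the protein on which the complement pathways converge. In CA1 the young libraries had 336 to 1476 reads (median 560) and the aged 682 to 2690 (median 1178). All 24 aged libraries lay above the young median, and 4 above every young one. The difference was 0.84 (SE 0.19, adjusted p = 0.0263). The highest young library was again that of R9780, and the other 9 had 336 to 898 reads.

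In CA3 the young libraries had 600 to 1133 C3 reads (median 810) and the aged 930 to 4343 (median 1163), a difference of 0.79 (SE 0.17, adjusted p = 0.089). All 24 aged libraries lay above the young median and 13 above every young library. In DG the young had 249 to 1010 reads (median 586) and the aged 490 to 1680 (median 877), a difference of 0.83 (SE 0.20, adjusted p = 0.0681). There 20 of 24 aged libraries lay above the young median. Without any 1 of 5 rats (R1922, R1923, R2176, R2221 and R9881) the adjusted call of C3 in CA1 was lost, while its differences stayed at 0.74 to 0.98. In DG it gained an adjusted call without R1931, R2233 or R9881. Without the CA3 library of R2238, C3 passed the adjusted test in CA3 (difference 0.72, adjusted p = 0.0478), beside 0.0210% of all genes.

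**Figure D1:**
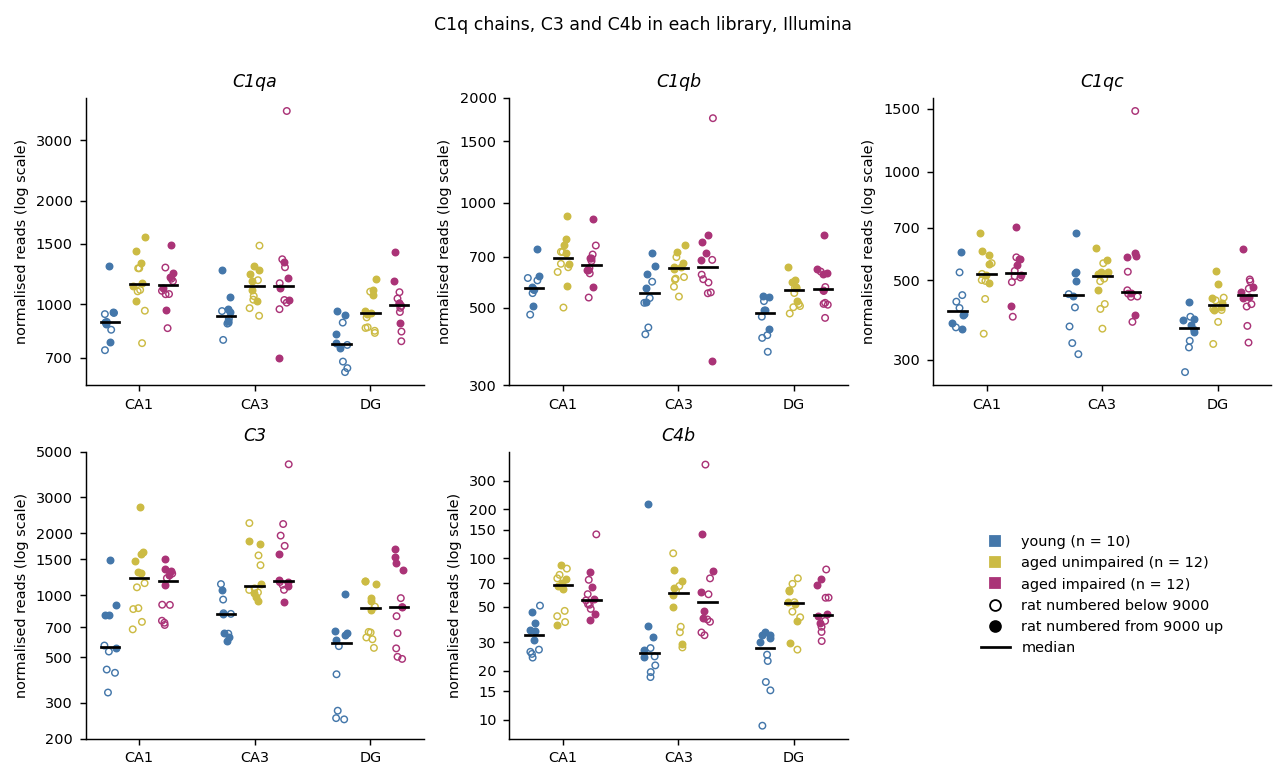
Normalised Illumina reads (log axis) of C1qa, C1qb, C1qc, C3 and C4b in each library, by subfield and group (young, aged unimpaired, aged impaired). Open circles are rats numbered below 9000, filled circles rats from 9000 up, and bars are medians. Aged libraries of C4b in DG (27.1 to 84.9 reads) lie mostly above the young ones (9.16 to 35.0), and the CA3 library of rat R2238 stands apart at 3653 C1qa reads.

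Part of the spread of C3 within an age group followed the rat-number series, and so did that of C4b in young DG libraries. Below 9000, young CA1 libraries had 336 to 569 C3 reads and aged ones 682 to 1275, with no overlap. How many of all genes had no overlap in such a subset was not counted. From 9000 up they had 552 to 1476 and 1127 to 2690, which overlapped because of R9780. Within the series the CA1 difference of C3 was 0.99 below 9000 (adjusted p = 0.00498) and 0.76 from 9000 up (adjusted p = 0.288).

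For C4b in DG the young libraries below 9000 had 9.16 to 25.2 reads and the aged 27.1 to 84.9, again with no overlap, while from 9000 up they had 30.2 to 35.0 and 29.8 to 74.3. The differences were 1.44 (adjusted p = 0.0169) and 0.61 (adjusted p = 0.613). In CA3 the C4b difference was 1.30 below 9000 and 0.46 from 9000 up, where rat R9876 lay. C3 and C4b were retested in every subfield within both series, other than C4b in CA3 from 9000 up. The share of all genes called within a series is not set beside these calls and adjusted p values. The difference of the age effect between the series was not tested. With the series as a covariate, the adjusted calls in CA1 were C1qa, C3 and C4b (adjusted p = 0.0202, 0.000139 and 0.00174), beside 0.789% of all genes. In DG they were C1qa, C1qb, C1qc, C3 and C4b (adjusted p = 0.00214, 0.00203, 0.0129, 6.36e-05 and 0.000433), beside 0.663%.

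The receptors for the fragments C3a and C5a were at low levels, and neither was called with age. C3ar1 medians in young and aged libraries were 23.3 and 27.1 (CA1), 21.4 and 24.4 (CA3), and 19.8 and 21.9 (DG). C5ar1 medians were 17.8 and 16.2 (CA1), 12.8 and 17.8 (CA3), and 11.2 and 12.1 (DG). The groups overlapped in each subfield. The differences ranged from -0.18 to 0.32 over both genes and the 3 subfields, with 95% intervals whose outer bounds were -0.62 and 0.65, so that changes as large as those of the C1q chains in DG were within the intervals of C5ar1 in CA3 and of C3ar1 in CA1 and CA3. The lowest C5ar1 value rested on 2 whole reads and the lowest C3ar1 value on 9, and the fewest C3ar1 reads in a library were 6.

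Serping1, the inhibitor of C1s, had young and aged medians of 98.7 and 120 (CA1), 122 and 182 (CA3), and 55.4 and 95.2 (DG). In DG the young libraries had 22.9 to 169 reads and the aged 37.5 to 215, and 19 of 24 aged libraries exceeded the young median. The difference in DG was 0.61 (SE 0.27, p = 0.0291, adjusted p = 0.813) and was not retested. Without young rat R9881, whose DG library was the highest of the young at 169, it was 0.78 and was retested. In CA1 and CA3 the differences were 0.44 (SE 0.32) and 0.26 (SE 0.35). In CA3 the Serping1 difference was 0.55 without young rat R9876 (811 reads there), 0.07 without R9877, and -0.08 with edgeR and with DESeq2, none of them called.

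**Figure D2:**
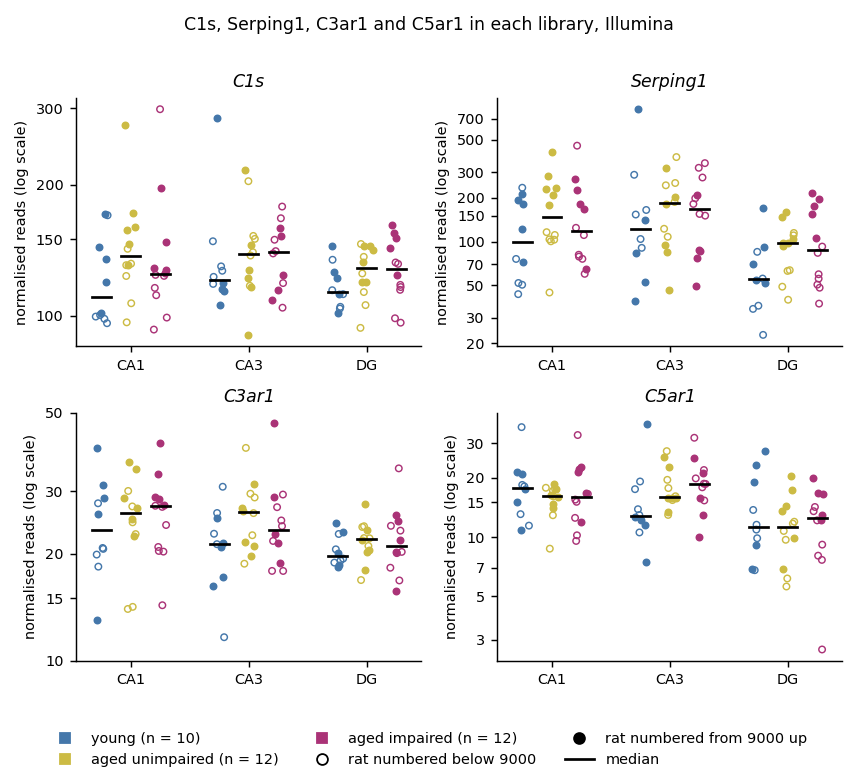
Normalised Illumina reads (log axis) of C1s, Serping1, C3ar1 and C5ar1 in each library, by subfield and group. Open circles are rats numbered below 9000, filled circles rats from 9000 up, and bars are medians. Groups overlap for all 4 genes, and the young CA3 library of rat R9876 is the highest of its group for C1s (285 reads), C5ar1 (37.7 reads) and Serping1 (811 reads).

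Markers of other cell types moved with age as follows. Of the 11 microglial markers tested, 11 were higher in aged rats in each subfield (median differences of 0.26, 0.21 and 0.22 in CA1, CA3 and DG), and 6, 2 and 6 were retested. The summed microglial level was 4940 to 6816 in young CA1 libraries, 5180 to 8451 in aged unimpaired and 5424 to 7717 in aged impaired ones. The C1q differences were 0.23 to 0.34 in CA1 and 0.28 to 0.33 in DG, beside those marker medians, and those of C3 and C4b were 0.83 to 1.02 there. Of 8 astrocyte markers, 6, 7 and 5 were higher, and 1 was retested in each subfield, with medians of 0.05, 0.07 and 0.03. Leptomeningeal markers had medians of -0.16, -0.63 and -0.07, with 3, 0 and 4 of 8 higher. Blood markers were higher in 5 of 5 cases in each subfield (medians 0.45, 0.23 and 0.37). Choroid plexus markers were higher for 6 of 6 (CA1, median 0.81), 0 of 6 (CA3, -0.55) and 2 of 4 (DG, 0.06), border macrophage markers for 2, 0 and 3 of 4 (0.02, -0.37 and 0.01), and endothelial markers for 4, 2 and 4 of 5 (0.08, -0.11 and 0.07), and no marker of these 5 lists was retested. The part of any of these in the complement differences was not tested.

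The CA3 library of R2238 is the highest aged one for 6 genes (the C1q chains, C3, C4b and C5ar1). Its C1qb was 2.81 times, its C1qc 3.22 times, its C3 3.72 times and its C4b 8.04 times the median of the other aged impaired CA3 libraries, and the Ion Proton library gave 3.67, 5.07, 4.63 and 14.6 times. Its summed microglial markers were 1.39 times and its leptomeningeal markers 0.968 times that median. The CA3 library of young rat R9876 had 8.74 times the C4b and 7.78 times the Serping1 of the other young CA3 libraries, with 36.5 times their leptomeningeal, 14.7 times their border macrophage, 6.65 times their blood and 3.48 times their endothelial markers, all outside the range of the others. Its CA3 markers were 0.334 times and its choroid plexus markers 7.08 times theirs, both within that range. In the CA1 library of aged impaired rat R2231 Serping1 was 4.11 times and C4b 2.56 times the median of the others in its group. Its leptomeningeal (16.6 times), border macrophage (4.29 times) and endothelial markers (1.48 times) lay above the range of the others. Its choroid plexus markers were 48.4 times their median, within that range. Its microglial (0.836 times), astrocyte (0.807 times), CA1 (0.622 times) and leukocyte markers (0.432 times) lay below it.

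**Figure D3:**
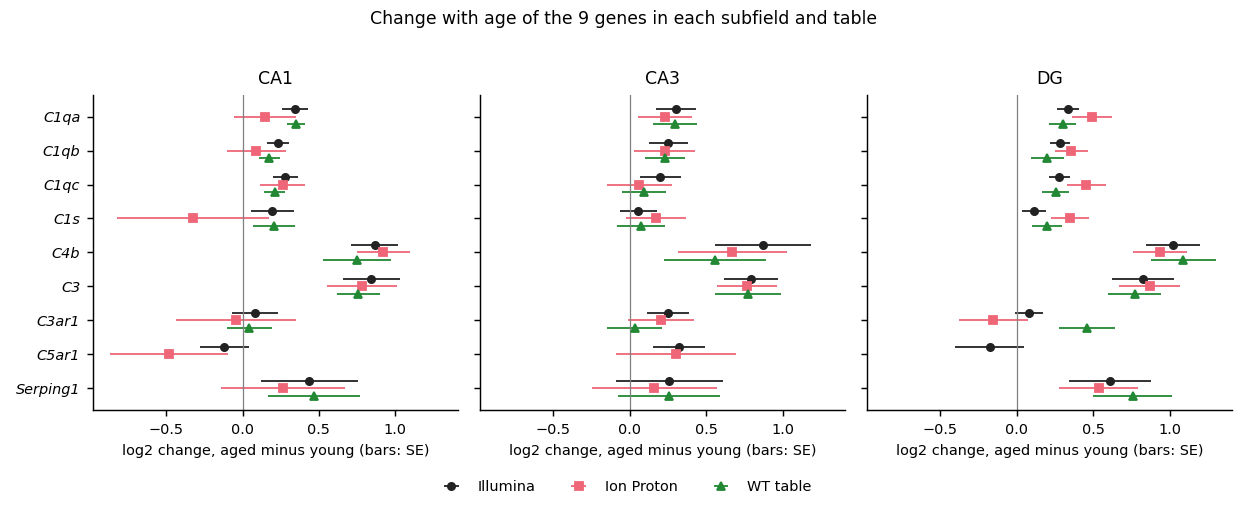
Difference of aged from young rats, log2(value + 1), for the 9 genes in CA1, CA3 and DG, in the Illumina (circles), Ion Proton (squares) and WT (triangles) tables, with bars of 1 SE. C3 lies between 0.76 and 0.87 in all 3 subfields and tables, and C4b between 0.56 and 1.09. C3ar1 and C5ar1 lie on both sides of 0, and C5ar1 was not tested in the WT table or in DG of the Ion Proton table.

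Each class of aged rats was also set against the young rats, and both comparisons share the same 10 young libraries. In aged unimpaired rats 2 genes were retested in CA1 (C3 and C4b, beside 0.607% of all genes), 1 in CA3 (C3, 0.386%) and 5 in DG (the C1q chains, C3 and C4b, 0.621%). In aged impaired rats 4 were retested in CA1 (C1qa, C1qc, C3 and C4b, 1.21%), 1 in CA3 (C3, 0.274%) and the same 5 in DG (0.948%). By limma on the Illumina values, none of the 9 passed the adjusted test in these comparisons. Of all genes, 0%, 0% and 0.05% passed in CA1, CA3 and DG for aged unimpaired rats. For aged impaired rats the shares were 0.0212%, 0% and 0.0998%. On the WT values, 1 of the 9 passed for aged impaired rats in CA1 and 1 in DG. There none passed in CA3 or for aged unimpaired rats, and the Ion Proton values gave none. The share of all genes is not set beside these WT calls. In the Illumina data, 5, 4 and 6 of the 9 had an unadjusted p under 0.05 for aged unimpaired rats. These stood beside 4.87%, 3.3% and 4.20% of all genes. For aged impaired rats there were 5, 2 and 5, beside 7.96%, 2.46% and 5.30%. DESeq2 gave adjusted calls of C4b in CA1 and DG and of C3 in CA3 in both classes, and of C1qa in DG of aged impaired rats, beside 0.0140% to 0.235% of all genes over the 6 comparisons, and edgeR gave none, beside 0% to 0.0855%.

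C3 in CA1 had a median of 560 reads in young, 1211 in aged unimpaired and 1169 in aged impaired rats, with differences from young of 0.93 (SE 0.23) and 0.76 (SE 0.20). C4b in DG had medians of 27.7, 52.6 and 44.4, with differences of 1.03 (SE 0.21) and 1.02 (SE 0.21). C1qa in DG had medians of 767, 944 and 999, with differences of 0.30 (SE 0.077) and 0.37 (SE 0.088). Without the 5 Ion Proton libraries that stood apart, 2 of them aged unimpaired CA1 libraries, 5 genes were retested in CA1 of aged unimpaired rats, beside 1.04% of all genes. Leaving out single rats also moved some calls: without R2230 C1qc was called in aged unimpaired CA1, without R9780 C1qb was called in aged impaired CA1, without R9876 C4b was called in CA3 of both classes (differences 1.05 and 1.30), and without R9881 Serping1 was called in aged unimpaired DG (0.76). C1qa in aged impaired CA1 lost its call without any 1 of 13 rats (R1922, R1923, R2175, R2182, R2221, R2235, R2238, R9781, R9870, R9872, R9875, R9876 and R9877), with differences from 0.29 to 0.38. Adjusted calls appeared without R9780 for C3 and C4b in CA1 of both classes and for C1qa in that of impaired rats, and for C4b also without R2175 in CA1 of both classes, R1930 or R2232 in CA1 of unimpaired rats, R1930 in DG of unimpaired rats, and R2233, R2235 or R9881 in DG of impaired rats.

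Aged impaired rats were then compared with aged unimpaired rats, the comparison that addresses cognition. None of the 9 genes was retested, none passed the adjusted test, and none had an unadjusted p under 0.05 in any subfield of the Illumina table. All genes tested gave 0.620% (CA1), 0.0211% (CA3) and 0.121% (DG) retested, 5.71%, 1.4% and 3.85% at an unadjusted p under 0.05, and 0% by adjusted p. With edgeR and DESeq2 none of the 9 was called either. The differences ranged from -0.23 (Serping1 in CA1, SE 0.34) to 0.25 (C4b in CA3, SE 0.31).

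For C3, aged unimpaired and aged impaired libraries had 682 to 2690 and 717 to 1496 reads (CA1), 935 to 2246 and 930 to 4343 (CA3), and 554 to 1179 and 490 to 1680 (DG). The ranges overlapped in each subfield. The differences were -0.17, 0.20 and 0.12, and their 95% intervals were -0.53 to 0.18, -0.20 to 0.60 and -0.28 to 0.51. For C4b the intervals were -0.38 to 0.31 in CA1, -0.36 to 0.87 in CA3 and -0.36 to 0.33 in DG, and for C1qa in DG -0.09 to 0.22. These intervals do not show that the classes were alike.

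The subfields were compared over all 34 rats. In the Illumina table the median difference from DG over the 9 genes was 0.27 for CA1 and 0.26 for CA3, against 0.0029 and 0.0099 over all genes. By adjusted p there, 7 genes were higher in CA1 than in DG (C1qa, C1qb, C1qc, C3, C3ar1, C5ar1 and Serping1, beside 29.0% of all genes in that direction) and 6 were higher in CA3 than in DG (the C1q chains, C3, C5ar1 and Serping1, beside 28.9%). In both poly-A tables together 0 genes were called between CA1 and DG (26.9% of all genes), 3 between CA3 and DG (C1qa, C3 and Serping1, 28.5%) and 0 between CA1 and CA3 (14.4%). Between CA1 and CA3 none of the 9 passed the adjusted test of the Illumina table alone by limma (35.4% of all genes), 1 of the 9, C3, had an unadjusted p under 0.05 (43.6%), and edgeR and DESeq2 called none. With the rat as a replicate block, 2 genes were called between CA1 and DG, C3 (adjusted p = 0.00267) and C4b (adjusted p = 0.00783), beside 29.2% of all genes. Between CA3 and DG the block added C4b (adjusted p = 0.0293) to the other 3, beside 30.8%.

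C1qa medians over all rats were 1093 (CA1), 1041 (CA3) and 936 (DG). CA1 and DG differed by 0.22 (SE 0.074, adjusted p = 0.00777), and CA3 and DG by 0.26 (SE 0.074, adjusted p = 0.00158). CA1 and CA3 differed by -0.04 (SE 0.074). C1qb (645, 617 and 530) and C1qc (511, 483 and 421) had the same order of medians, with differences from DG of 0.23 to 0.27. Of these differences between subfields, that of C1qa between CA3 and DG was the 1 called in both poly-A tables.

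The call of C1qa between CA3 and DG was lost without the libraries nearer to another subfield (difference 0.31) and without any 1 of 7 rats (R1922, R2176, R2237, R2238, R9780, R9867 and R9879), with differences from 0.21 to 0.28. Without rat R2232, C3 and C3ar1 were called between CA1 and DG, and without R2189 or R9862 C1qc was called between CA3 and DG. Of the Illumina calls between CA1 and DG, that of C3 was lost without R9780 or R9869, and that of C3ar1 without R9780, R9862, R9869, R9870, R9875, R9876 or R9877. Without the 5 Ion Proton libraries that stood apart, 3 genes (C3, C3ar1 and C5ar1) were called between CA1 and DG, beside 31.2% of all genes, and 6 between CA3 and DG, beside 35.8%. Microglial markers followed the same direction, with 11 of 11 higher in CA1 than in DG (median 0.29) and 11 of 11 higher in CA3 than in DG (0.27), as did most lists of other cell types. In CA1 and in CA3 against DG, leptomeningeal markers were higher for 8 of 8 in each (medians 0.77 and 0.53), choroid plexus markers for 6 of 6 (1.14 and 1.09), blood markers for 5 of 5 (0.56 and 0.36), endothelial markers for 5 of 5 (0.42 and 0.22), border macrophage markers for 4 of 4 (0.50 and 0.21) and astrocyte markers for 8 and 7 of 8 (0.15 and 0.11). Of the leukocyte markers only Cd3e had a mean of at least 10, and it was higher in CA1 (2.67) but not in CA3 (-0.60). The part of any of these in the subfield differences was not tested.

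C1s medians were 128, 129 and 123, and no 2 subfields differed by adjusted p. C4b medians were 51.1, 42.0 and 40.7, with differences from DG of 0.36 (SE 0.18) for CA1 and 0.30 (SE 0.18) for CA3. C3ar1 medians were 26.4, 22.7 and 20.8, and C5ar1 medians 16.4, 16.0 and 11.8. C5ar1 differed from DG by 0.47 (SE 0.12, adjusted p = 0.000564) in CA1 and 0.52 (SE 0.12, adjusted p = 0.000144) in CA3, but in the Ion Proton table by 0.32 and 0.34 with adjusted p of 0.31 and 0.275.

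For 3 of the 9 genes, C3, Serping1 and C5ar1, the CA3 to DG difference differed in size between the 2 number series. This was a smaller share than the 48.6% of all genes past the same test. Below 9000, C3 was higher in CA3 than in DG by 1.25 (adjusted p = 9.04e-08). From 9000 up that difference was 0.06 (adjusted p = 0.818). The difference between the series was -1.20 (adjusted p = 5.76e-08, 48.6% of all genes had an adjusted p under 0.05 in this test), and in the Ion Proton table it was -1.21 (adjusted p = 2.37e-05).

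In reads, aged DG libraries had 490 to 968 C3 reads below 9000 and 852 to 1680 from 9000 up. Young DG libraries had 249 to 565 and 607 to 1010, so that the young ranges did not overlap between the series. Aged CA3 libraries, in contrast, had 1032 to 4343 and 930 to 1837 (medians 1401 and 1130). C3 was thus higher in the upper series in DG (difference 0.89, adjusted p = 7.82e-08) and in CA1 (0.77, adjusted p = 2.27e-06), and lower in CA3 (-0.31, adjusted p = 0.036). All genes gave 26.2% with an adjusted p under 0.05 between the series in DG, 33.8% in CA1 and 57.7% in CA3.

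Serping1 showed a like pattern. Its CA3 to DG difference was 1.73 below 9000 (adjusted p = 1.03e-09) and -0.04 from 9000 up, which differed by -1.78 (adjusted p = 1.59e-05). Its medians in aged CA3 libraries were 198 below 9000 and 87.3 from 9000 up, and in aged DG libraries 59.7 and 146. For C5ar1 the CA3 to DG difference was 0.86 below 9000 and 0.14 from 9000 up. These differed by -0.72 (adjusted p = 0.00668), and in the Ion Proton table by -0.73 (adjusted p = 0.293).

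Between CA1 and CA3, 4 of the 9 genes differed between the series in the Illumina table, beside 40.2% of all genes, and 2 of them, C3 and Serping1, in the Ion Proton table as well. For C3 the CA1 to CA3 difference was -0.82 below 9000 and 0.26 from 9000 up (difference 1.08, adjusted p = 1.06e-06), and for Serping1 -1.03 and 0.73 (1.76, adjusted p = 2.52e-05). C1s (0.37, adjusted p = 0.03) and C3ar1 (0.43, adjusted p = 0.0199) were the others, with Ion Proton values of 0.72 (adjusted p = 0.251) and 0.92 (adjusted p = 0.0683). Between CA1 and DG none of the 9 differed between the series, beside 0.867% of all genes. The C1q chains and C4b differed between the series in no pair of subfields.

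CA3 libraries also differed between the series in their subfield markers. From 9000 up, 4 of 5 CA3 markers were lower by adjusted p (median -1.12), 4 of 4 CA1 markers were higher (median 1.01) and 3 of 4 DG markers were higher (median 1.23). Other cell types also differed there by adjusted p. Leptomeningeal markers were higher for 6 of 8 and lower for 1 (median 1.08). Astrocyte markers were higher for 7 of 8 and lower for 1 (0.30). Blood markers were higher for 5 of 5 (1.54), border macrophage markers for 4 of 4 (1.23) and endothelial markers for 5 of 5 (0.52). Microglial markers were higher for 4 of 11 (0.16), and choroid plexus markers higher for 0 of 6 and lower for 1 (0.595). These are Illumina values from the CA3 libraries, where C3 was lower. In the Ion Proton table, 0 of 11 microglial markers (median 0.19) and 5 of 8 astrocyte markers (0.38) were higher by adjusted p. In the WT table the medians of the same markers were -0.08, with 3 of 11 lower, and -0.05, with 2 of 8 higher and 2 lower. In CA1 and DG, where C3 was higher, so were by adjusted p 6 and 3 of 6 choroid plexus markers (medians 2.65 and 1.79), 5 and 5 of 5 blood markers (1.06 and 1.00), 6 and 7 of 8 astrocyte markers (0.27 and 0.24), 5 and 5 of 11 microglial markers (0.17 and 0.18) and 2 and 3 of 4 border macrophage markers (0.41 and 0.70). Leptomeningeal markers had medians of -0.20 and 0.05 there. In the WT table, 0 of 11 microglial and 0 of 8 astrocyte markers were higher by adjusted p in CA1 (medians 0.03 and -0.0008), against 6 and 2 in DG, and in the Ion Proton table, 4 and 0 of 11 microglial and 5 and 3 of 8 astrocyte markers were in CA1 and DG. The part of any of these in the C3 and Serping1 differences was not tested. Without the 12 libraries that lay nearer to another subfield, the CA3 to DG difference was 0.78 for C3 and 1.15 for Serping1, against 0.69 and 0.90 with them.

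**Figure D4:**
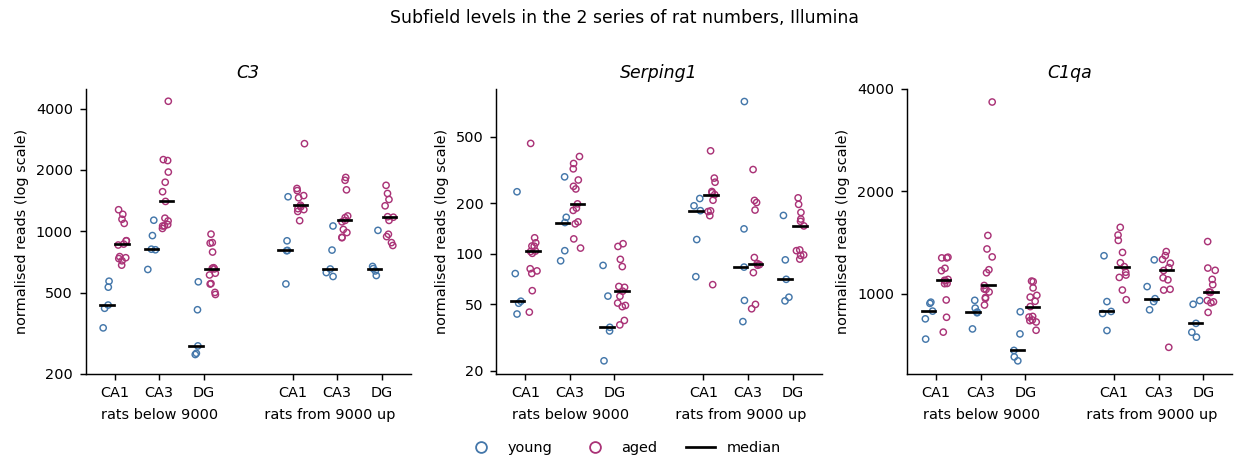
Normalised Illumina reads (log axis) of C3, Serping1 and C1qa in young (blue) and aged (magenta) rats, by subfield, with rats numbered below 9000 on the left of each panel and from 9000 up on the right. Points are libraries and bars are medians. Aged medians of C3 are 1401 in CA3 and 654 in DG below 9000, and 1130 and 1172 from 9000 up.

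Whether the age difference of a gene was unlike in different subfields was tested by interaction. None of the 9 passed, at an adjusted or an unadjusted p under 0.05, in any pair of subfields by limma. Of all genes 1.93% (CA1 and CA3), 0.353% (CA1 and DG) and 1.06% (CA3 and DG) had an unadjusted p under 0.05, and 0% passed the adjusted test. C4b, for example, had age differences of 0.87, 0.88 and 1.02 in CA1, CA3 and DG, and C3 0.84, 0.79 and 0.83. For CA3 and DG the interaction of C1qa was -0.03 (95% interval -0.31 to 0.25) and that of C1qb -0.03 (-0.29 to 0.23). These intervals do not show that the age differences were alike.

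Of 44 other symbols of complement genes, 43 were listed and 29 had a mean of at least 10 (28 in DG). With age 2 were retested in CA1 (C4a and Itgb2, beside 0.832% of all genes), 1 in CA3 (Itgb2, 0.393%) and 3 in DG (C1r, C4a and Itgb2, 1.07%), all higher in aged rats, and the median difference over the list was 0.03, 0.04 and 0.07. C4a, the near-identical copy of C4b, had 31.7 to 88.4 reads in young and 52.2 to 199 in aged CA1 libraries, and 20.6 to 59.1 against 58.3 to 119 in DG. In DG only the lowest aged library lay within the young range. Its differences were 0.86 (SE 0.15, adjusted p = 0.00259) in CA1, 0.67 (SE 0.29) in CA3 and 0.92 (SE 0.12, adjusted p = 2.28e-05) in DG.

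Itgb2, the shared chain of the complement receptors that bind cleaved C3, had young and aged medians of 141 and 207 (CA1), 169 and 206 (CA3) and 129 and 161 (DG). Its differences were 0.46 (SE 0.096, adjusted p = 0.0148), 0.42 (SE 0.11) and 0.36 (SE 0.095). C1r, the partner protease of C1s, differed by 0.28 (SE 0.082) in DG, and unlike the 9 genes it was lower in CA1 than in DG (-0.33, adjusted p = 0.00191). In the separate classes, Susd4, a membrane protein that holds back complement, was retested in CA3 of aged unimpaired rats (0.22, SE 0.071), and Fcna, a lectin that starts complement, in CA1 of aged impaired rats (0.50, SE 0.15). Cd55, which breaks down the C3-cleaving enzyme, was the 1 complement gene retested between aged impaired and aged unimpaired rats, in CA1 (0.65, SE 0.20, adjusted p = 0.562), and was not called with age.

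The genes whose deviations from the mean of their group were most like each member are given as a description over all Illumina libraries, which share rats, depth and number series. The 3 closest to each gene follow, with Spearman's rho in the Illumina and then in the Ion Proton table. For C1qa they were Tmem176b (0.88, 0.62), C1qb (0.87, 0.83) and Npc2 (0.84, 0.83). For C1qb they were C1qa, Ctss (0.86, 0.45) and Anxa3 (0.82, 0.33), and for C1qc C1qb (0.79, 0.79), C1qa (0.76, 0.75) and Tmem176a (0.69, 0.53).
C1s was closest to Cp (0.77, 0.22), Cybrd1 (0.74, 0.17) and Aebp1 (0.74, 0.39). C3 was closest to Itgam (0.89, 0.77), the other chain of a receptor for cleaved C3, and then to Slc29a3 (0.81, 0.40) and Cd4 (0.81, 0.63). For C4b the genes were C2 (0.69, with no value in the Ion Proton table), RT1-T24-4 (0.67, 0.62) and C4a (0.66, 0.78). For the receptors the genes were RGD1305645 (0.51, 0.10), Aebp1 (0.47, 0.26) and Igsf10 (0.46, 0.14) for C3ar1, and Msn (0.66, 0.39), Nkd1 (0.60, 0.14) and Cd97 (0.59, 0.39) for C5ar1. Serping1 was closest to S100a4 (0.88, 0.66), Vim (0.88, 0.84) and RGD1305645 (0.87, 0.71).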

How the data were processed

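Values were read from 3 deposited tables, each with 102 libraries. The deposited values are a normalised signal: per the study's methods and the labels, the authors counted reads per gene with featureCounts (1.4.4) on rn5, after STAR (2.5) and cutadapt (1.8.3) for the Illumina table and TopHat2 and Bowtie2 for the Ion Proton table, and divided the counts by DESeq2 size factors. For the WT table, library type and aligner are not given in the sources used here. The labels and the methods name different kits, so strand use is unknown. All values above 0 (100.0%) were whole multiples of 1 step within 0.001 of the value, which returned whole reads. Samples were grouped by title suffix and subfield.

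Genes with a mean of at least 10 were tested with limma (3.58.1, R 4.3.3) on log2(value + 1), a scale that understates changes of genes with few reads, with Benjamini-Hochberg adjustment over all genes of a table. Subfields were fitted over all libraries, and age and cognition within a subfield on the groups compared. The 9 genes are all named, as are other complement genes called with age or cognition and the 3 genes most like each member. Members and lists were chosen with earlier results of these data known. Alternatives were edgeR (4.0.16) and DESeq2 (1.42.0) on the whole reads, other scalings, filters and pseudocounts, subsets of rats and libraries, and leaving out each of 34 rats. Libraries of 1 rat come from the same animal, which pairs the subfields. Their deviations over all genes correlated with a median of 0.09 (CA1 and CA3), 0.19 (CA1 and DG) and -0.03 (CA3 and DG). Scripts were tested on simulated data.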

Additional observations from a re-analysis of the deposited data

Results flagged for a closer look

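In 9 of 27 young groups of 10 Illumina libraries (9 genes in 3 subfields), 1 library lay farther from the rest than Dixon's limit for 10 values. Chance flags about 1 in 20 groups, and the genes and libraries are not independent. The CA3 library of young rat R9876 was such a library for C1s (285 reads), C4b (215), C5ar1 (37.7) and Serping1 (811), and its leptomeningeal markers were 36.5 times those of the other young CA3 libraries. The CA1 library of young rat R9780 was one for C1qa (1293 reads), C1qb (739) and C3 (1476), with 1.26 times the microglial markers of its group. The CA1 library of young rat R2175 was one for C5ar1 (36.2 reads), and the DG library of young rat R9881 for Serping1 (169 reads). The part of these markers in the values was not tested.

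Differences between subfields also differed between rats numbered below 9000 and from 9000 up, by limma with Benjamini-Hochberg adjustment over all genes. The CA1 to CA3 difference changed by 0.37 for C1s, 1.08 for C3, 0.43 for C3ar1 and 1.76 for Serping1 on the log2 scale from the lower to the upper series, beside 40.2% of all genes past this test. The CA3 to DG difference changed by -1.20 for C3, -0.72 for C5ar1 and -1.78 for Serping1, beside 48.6%. The shares of the 9 genes, 4 and 3 of 9, were thus near to or below those of all genes.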

How the results depend on the processing

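Counts of called genes that moved by more than 1.5 times were as follows. With edgeR and with DESeq2, 1 gene was called between CA1 and DG, 5 and 6 between CA3 and DG, and 1 with age in CA3, beside 28.9% and 29.1%, 30.6% and 31.5%, and 1.10% and 0.681% of all genes. Below 9000, calls were 1 (CA1), 2 (CA3) and 3 (DG) for aged unimpaired against young, 2 in CA3 for aged impaired against young, and 2 between CA1 and CA3 (C3 and Serping1), beside 0.184% to 0.359%, 0.255% and 21.4% of all genes. From 9000 up they were 4 (aged unimpaired, CA1), 0 (aged impaired, CA1), 3 (aged unimpaired, DG), 1 (age, CA3), 2 between CA1 and DG and 1 between CA3 and DG, beside 0.204% to 0.963% of all genes by age or class and 20.5% and 21.6% between subfields. Without the deeply sequenced rats, without libraries nearer to another subfield, and in the WT table, age in CA3 had 1 call (0.553%, 0.302% and 0.321% of all genes), and aged unimpaired DG had 3 without the deep rats (0.727%) and 2 in the WT table (0.363%). Without the libraries of R9780 (CA1) and R9876 (CA3), without libraries high in leptomeningeal markers, and without R9876 and R2238 (CA3), both classes had 2 calls in CA3 (0.415% of all genes in unimpaired and 0.260% to 0.324% in impaired rats), and the last gave 1 between CA1 and DG (26.6%). Without libraries high in choroid plexus markers, calls were 1 between CA1 and CA3 (C3, 12.1%), 1 in aged unimpaired CA1 (0.276%) and 2 in aged unimpaired CA3 (0.352%). Without the 5 Ion Proton libraries that stood apart they were 3 between CA1 and DG, 6 between CA3 and DG, 5 with age in CA1 and 5 in aged unimpaired CA1. The replicate block gave 2 between CA1 and DG and added C4b between CA3 and DG, and changed no other call made in both poly-A tables. The subsets without R2238, without leptomeninges-high, choroid-high or Ion Proton libraries, without R9876 and R2238 together, and the subfields within a series were chosen after seeing the data. Leaving out 1 rat at a time gave 2 to 4 calls with age in CA1, 1 to 2 in CA3, 5 to 6 in DG, 0 to 2 between CA1 and DG, 2 to 4 between CA3 and DG, and 1 to 2 in CA3 of each class, beside 0.528% to 1.13%, 0.309% to 0.526%, 0.82% to 1.5%, 24.1% to 28.3%, 25.9% to 30.3%, and 0.217% to 0.442% of all genes. The causes were not tested.

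Over all 9 genes, 162 differences and 22 settings, 197 of 2945 recomputed differences had the other sign, 30 of them in the Ion Proton table, and no difference with the other sign was called. The 82 differences followed singly (each gene with age and between a subfield and DG, the C1q chains, C3 and C4b in each class, C3 and C4b between the classes, and C3 between CA1 and CA3) were recomputed 1532 times. The other sign appeared 33 times, in 18 of these differences, of which that of Serping1 between CA3 and DG was called over all rats and the other 17 were not. Among these 82, for aged impaired against aged unimpaired rats, they were C4b in CA1 with edgeR (0.0018), below 9000 (0.1142) and in the Ion Proton table (0.0721), C4b in DG with edgeR (0.0391), with DESeq2 (0.0265), from 9000 up (0.1082), without libraries nearer to another subfield (0.0023), in the WT table (0.3531) and in the Ion Proton table (0.1338), C3 in CA1 below 9000 (0.0363), in the Ion Proton table (0.0228) and without choroid-high libraries (0.1029), and C3 in CA3 from 9000 up (-0.06). With age in CA3 they were Serping1 with edgeR (-0.0766), DESeq2 (-0.0825) and from 9000 up (-0.0685), C1s from 9000 up (-0.0577), without the deep rats (-0.0125) and without libraries nearer to another subfield (-0.0024), and C1qc from 9000 up (-0.0068). With age in CA1 they were C5ar1 from 9000 up (0.0424), and C1s (-0.3215) and C3ar1 (-0.0426) in the Ion Proton table, where C3ar1 in DG was -0.1541. C1qc in CA3 was -0.0357 in aged impaired rats from 9000 up, and in aged unimpaired rats -0.0379 (WT) and -0.0345 (Ion Proton). Between subfields they were C3ar1 (CA3 and DG, quantile normalisation, -0.0315), C1s (CA1 and DG) in the Ion Proton table (-0.179) and without choroid-high libraries (-0.0010), and, from 9000 up, C3 (CA1 and CA3, 0.2578), C1s (CA3 and DG, -0.0055) and Serping1 (CA3 and DG, -0.0408). C5ar1 could not be tested in the WT table. Depth limits C3ar1, C5ar1 and C4b, whose lowest values rest on 9, 2 and 4 reads.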

Other observations

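Whether a rat that was high in one subfield was also high in another was computed from deviations from the mean of the group, for 9 genes and 3 pairs of subfields (27 relations, 34 rats, 100000 permutations, two-sided, Benjamini-Hochberg adjusted). A total of 5 relations by Pearson's r and 7 by Spearman's rho had an adjusted p under 0.05. Such relations were not computed gene by gene over all genes, so these counts do not show a trait of complement genes. The permutations shuffled rats across the 2 number series. All values are of the Illumina table unless the Ion Proton table is named. For C3 in CA1 and DG, r was 0.68 (permutation p = 2e-05, adjusted p = 0.00054) and rho 0.74 (permutation p = 1e-05, the smallest these permutations can give, adjusted p = 0.00027), and r was 0.78 without the 2 rats farthest from the median. Within the number series r was 0.73 (18 rats) and -0.43 (16 rats), so the relation did not hold within both. In the Ion Proton table r for C3 was 0.55 (permutation p = 0.00038, adjusted p = 0.0103) and rho 0.63 (permutation p = 6e-05, adjusted p = 0.00162). For C4b in CA1 and DG, r was 0.48 (permutation p = 0.00395, adjusted p = 0.0327) and rho 0.58 (permutation p = 0.00038, adjusted p = 0.00342), with 0.61 without 2 rats and 0.36 and 0.75 within the series, and in the Ion Proton table r was 0.46 (permutation p = 0.00642, adjusted p = 0.0867) and rho 0.55 (permutation p = 0.00101, adjusted p = 0.0136). For C4b in CA3 and DG, r was 0.47 (permutation p = 0.00485, adjusted p = 0.0327) and rho 0.61 (permutation p = 0.00018, adjusted p = 0.00243), with 0.52 without 2 rats and 0.50 and 0.18 within the series, and 0.21 in the Ion Proton table (permutation p = 0.23, adjusted p = 0.807). For C1qc in CA1 and DG, r was 0.54 (permutation p = 0.00115, adjusted p = 0.0155) and rho 0.45 (permutation p = 0.00747, adjusted p = 0.0403), with 0.60 without 2 rats and 0.48 and 0.62 within the series, but in the Ion Proton table r was 0.16 (permutation p = 0.363, adjusted p = 0.807) and rho 0.21 (permutation p = 0.228, adjusted p = 0.552). For C1qb in CA1 and DG, r was 0.46 (permutation p = 0.00691, adjusted p = 0.0373) and rho 0.41 (permutation p = 0.0178, adjusted p = 0.0602), with 0.41 without 2 rats and 0.24 and 0.50 within the series, and 0.13 in the Ion Proton table (permutation p = 0.46, adjusted p = 0.807). Spearman's rho alone had an adjusted p under 0.05 for C1qb in CA3 and DG (0.43, permutation p = 0.0107, adjusted p = 0.0483), for C4b in CA1 and CA3 (0.47, permutation p = 0.00531, adjusted p = 0.0358) and for C1s in CA1 and DG (0.42, permutation p = 0.0129, adjusted p = 0.0498), where r was 0.17, 0.23 and 0.37 and the Ion Proton rho 0.15, 0.20 and 0.15 (adjusted p = 0.568, 0.552 and 0.568). In the Ion Proton table, relations other than C3 and C4b in CA1 and DG had no adjusted p under 0.05 by either measure.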
